A study of Mus musculus with 6 samples.

Results

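The genes described are 32 coagulation and fibrinolysis factors, the clotting factors, their inhibitors and the plasminogen system, taken by symbol from a deposited table of 32212 gene rows. All 32 symbols were found, and 31 passed the filter on low counts with 13867 genes in all. The table holds poly(A)-selected RNA-seq counts from liver of 3 wild-type (WT) and 3 CgA-KO mice, 1 library per liver. All were male C57BL/6 mice, 2 yr old and fed normal chow. CgA-KO mice lack chromogranin A, a prohormone of neuroendocrine cells encoded by Chga, and nothing in the labels ties the loss to a single cell type. The comparison asks how the liver RNA of these factors differed when chromogranin A was absent in old age.

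Clotting runs as a chain of plasma proteases. Tissue factor or the contact system starts it, activated factor X and its cofactor turn prothrombin into thrombin, and thrombin cuts fibrinogen into fibrin, which factor XIII crosslinks. Antithrombin, tissue factor pathway inhibitor and the protein C pathway hold the chain back, and plasmin, made from plasminogen by tissue-type or urokinase-type activator, dissolves the clot. Hepatocytes make most of the circulating factors, whereas receptors, activators and von Willebrand factor come mainly from endothelial cells, macrophages and other cells of the liver.

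Total counts per library ranged from 10558616 to 31087453, and TMM factors, which scale libraries to each other, from 0.756 to 1.12, the lowest in WT replicate 2. Chga had 0 counts in all 6 libraries, so the targeted gene could not check the labels. The summed hepatocyte markers overlapped between genotypes, from 62081 to 101027 CPM in WT and from 55622 to 92473 CPM in CgA-KO livers. CgA-KO replicate 2 stood apart in neutrophil markers, with 374 CPM against 33.5 and 36.9 CPM in the other CgA-KO libraries and at most 11.4 CPM in WT. Levels are TMM-normalized CPM, counts scaled to the size of the library, errors are standard deviations over 3 livers, and calls are those of edgeR's quasi-likelihood test at an adjusted p under 0.05. The labels do not say more of the animals. The p-values set the difference between genotypes against the spread among these 6 libraries within a genotype.

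The promoters below are shown for the fibrinogen genes, whose TMM-normalized RNA varied together between libraries, and for Procr, the single factor called. They were chosen after the values were seen. The 3 fibrinogen genes are neighbours on chromosome 3, with 6514 bases between Fga and Fgb and 11027 between Fga and Fgg. Each sequence comes from RefSeq (GRCm38.p6), runs 5′ to 3′ on the strand of its gene and ends at the first annotated exon. Capitals mark matches on either strand to a C/EBP motif, TTGCNNAA, or an HNF1 half-site, GTTAAT, letters bound by factors that are abundant in hepatocytes.
Fga, chr3:83025903-83026075, plus strand: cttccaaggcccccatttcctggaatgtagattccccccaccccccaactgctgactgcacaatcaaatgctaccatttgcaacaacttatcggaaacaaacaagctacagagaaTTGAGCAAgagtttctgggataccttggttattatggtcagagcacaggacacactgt
Fgb, chr3:83049864-83050113, minus strand: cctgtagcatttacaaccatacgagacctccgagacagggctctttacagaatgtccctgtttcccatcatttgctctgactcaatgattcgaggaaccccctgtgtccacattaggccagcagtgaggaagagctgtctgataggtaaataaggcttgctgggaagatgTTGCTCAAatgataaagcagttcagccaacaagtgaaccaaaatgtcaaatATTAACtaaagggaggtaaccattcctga
Fgg, chr3:83007474-83007723, plus strand: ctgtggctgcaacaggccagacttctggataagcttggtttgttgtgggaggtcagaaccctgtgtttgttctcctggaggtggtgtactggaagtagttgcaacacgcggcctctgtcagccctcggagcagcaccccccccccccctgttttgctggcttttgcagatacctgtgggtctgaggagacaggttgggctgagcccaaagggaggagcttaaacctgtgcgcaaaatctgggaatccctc
Procr, chr2:155750967-155751116, plus strand: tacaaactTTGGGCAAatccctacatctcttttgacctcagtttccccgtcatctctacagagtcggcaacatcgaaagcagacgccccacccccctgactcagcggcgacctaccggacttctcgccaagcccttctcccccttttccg
Fga and Procr showed a C/EBP match, Fgb showed both motifs, and Fgg showed neither in this window. The start that RefSeq gives for Fga lies further on, and its HNF1 match lay past the part shown. The promoter table matched 24 of the 32 genes with 26 promoters. Over 250 bases before the start, the C/EBP letters were present in 30.8% of these and in 9.6% of 32851 promoters, and the HNF1 letters in 11.5% and 6.4%. The motifs do not overlap in the sequences shown, and a match is only a match of letters.

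A single factor of the 31 tested was called. Procr, the endothelial receptor for protein C, was called higher in CgA-KO livers, and no factor was called lower. This is 3.23% of the factors, where 12.4% of all genes tested were called, 8.60% higher and 3.84% lower. At an unadjusted p under 0.05, edgeR gave 5 factors higher and 0 lower, where 29.1% of all genes passed. The genotypes did not overlap for 5 factors, all higher in CgA-KO livers, where 33.6% of all genes did not overlap, 19.0% higher and 14.6% lower. The median log2 fold change was -0.07 over the factors and -0.01 over all genes.

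**Figure D1:**
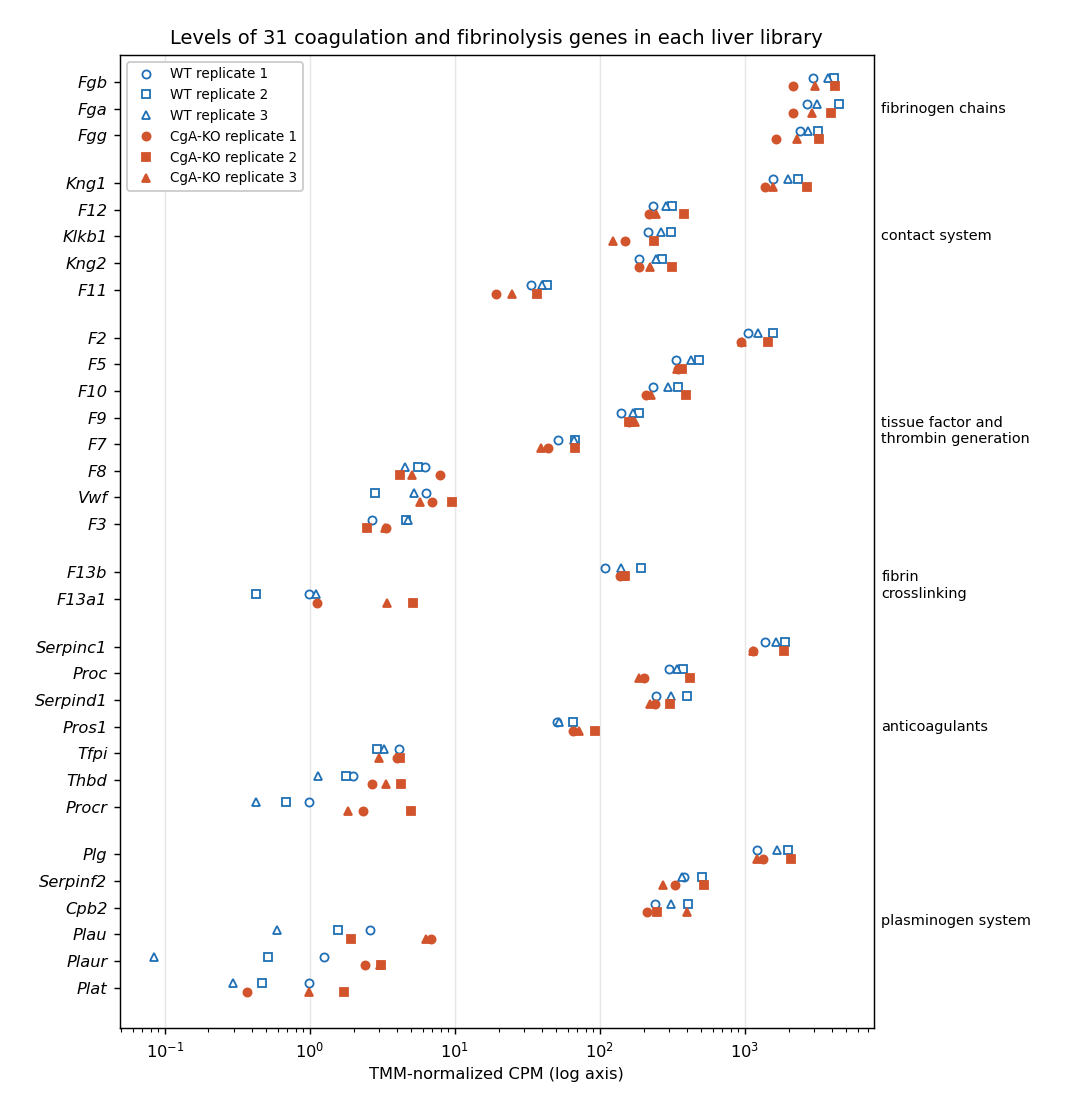
Each row is a gene and each symbol a library, with TMM-normalized CPM on a log axis (open blue, WT; filled orange, CgA-KO; circle, square and triangle, replicates 1, 2 and 3). The fibrinogen chains lie at the top, from 1629 to 4476 CPM. Among the factors at a few CPM or less, Procr, Thbd, Plaur and F13a1 do not overlap between genotypes, nor does Pros1 at higher levels.

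The 3 fibrinogen chains, the subunits of the protein that becomes fibrin, were the most abundant factors by CPM and did not pass the test. Per kilobase of transcript they also led in WT livers, while in CgA-KO livers Kng1 (829) lay above Fgb (817 CPM per kilobase). Fga read 2685, 4476 and 3153 CPM in WT replicates 1, 2 and 3 and 2152, 3911 and 2889 CPM in the CgA-KO replicates. Fgb read 2936, 4122 and 3720 CPM in WT and 2158, 4147 and 3035 CPM in CgA-KO livers. Fgg read 2401, 3214 and 2736 CPM in WT and 1629, 3254 and 2281 CPM in CgA-KO livers. On this TMM scale, which raises WT replicate 2 most (factor 0.756), replicate 2 was the highest for each chain in both genotypes. The genotypes overlapped. The log2 fold changes were -0.20, -0.21 and -0.22 for Fga, Fgb and Fgg, with adjusted p of 0.732, 0.718 and 0.693. Their 95% intervals by limma-voom together ran from -0.96 to 0.51, which leaves out a change of 2-fold. Within a library, the ratio of Fgb to Fga counts was 1.06 ± 0.132 (SD, n = 3) in WT and 1.04 ± 0.0306 (SD, n = 3) in CgA-KO livers, and the genotypes overlapped.

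Among the 5 contact system genes, 0 were called, and Klkb1 and F11 had the lowest log2 fold changes of all the factors. Klkb1, which encodes plasma prekallikrein, read 213, 311 and 264 CPM in WT and 148, 235 and 123 CPM in CgA-KO livers. The second CgA-KO library lay within the WT range and the other two lay below it. The log2 fold change was -0.64 (standard error 0.285, adjusted p = 0.176), with a limma-voom interval from -1.30 to -0.05. F11, the gene of factor XI, lies 4658 bases from Klkb1 on chromosome 8 with no coding gene between them. F11 read 33.3, 43.5 and 39.7 CPM in WT and 19.2, 37.0 and 24.6 CPM in CgA-KO livers, with the same overlap through CgA-KO replicate 2. Its log2 fold change was -0.53 (standard error 0.249, adjusted p = 0.199), and its interval ran from -1.14 to -0.01. In the annotation, 43.02% of the 31-base words of Klkb1 transcripts also occur in an overlapping gene, so its count depends on how reads were shared out. F12, the gene of factor XII, which activates prekallikrein and factor XI, differed by 0.02 on the log2 scale, and the kininogen genes Kng1 and Kng2 by -0.06 and 0.05. Kng1 and Kng2 share 26.52% and 32.27% of their words with each other, so their separate levels are uncertain.

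The genes of tissue factor and thrombin generation gave 0 calls among 8. F2, prothrombin, read 1049, 1567 and 1221 CPM in WT and 940, 1451 and 949 CPM in CgA-KO livers, and the genotypes overlapped. The log2 fold change of F2 was -0.20 (adjusted p = 0.689). Of the other hepatocyte proteases and cofactors in this group, F7 had a log2 fold change of -0.31, F5 of -0.23, F10 of -0.08 and F9 of -0.01, with adjusted p between 0.439 and 0.988. F7, which tissue factor activates, and F10, on which both arms meet, lie 1499 bases apart on chromosome 8. F3, tissue factor itself, was low, at 4.04 ± 1.17 CPM in WT livers against 3.03 ± 0.483 CPM in CgA-KO livers (SD, n = 3), with a log2 fold change of -0.43 (adjusted p = 0.427). F8, the cofactor of factor IX made by endothelial cells, differed by 0.07 on the log2 scale (adjusted p = 0.911). Vwf, the carrier of factor VIII, read 6.36, 2.81 and 5.25 CPM in WT and 6.96, 9.51 and 5.74 CPM in CgA-KO livers. CgA-KO replicate 3 fell within the WT range for Vwf, and the log2 fold change of 0.64 did not pass (adjusted p = 0.261).

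The 2 subunits of factor XIII, the transglutaminase that crosslinks fibrin, come from different cells. F13b, the carrier subunit made by hepatocytes, had 147 ± 41.4 CPM in WT livers against 144 ± 5.92 CPM in CgA-KO livers (SD, n = 3), a log2 fold change of -0.03 (adjusted p = 0.956). F13a1, the catalytic subunit of macrophages and platelets, read 0.985, 0.425 and 1.10 CPM in WT and 1.11, 5.11 and 3.41 CPM in CgA-KO livers. The genotypes did not overlap, but CgA-KO replicate 1 lay next to the highest WT library. The log2 fold change was 1.96 (standard error 0.609, adjusted p = 0.0682), and the limma-voom interval ran from 0.25 to 3.53. DESeq2 called F13a1 (adjusted p = 0.0190), where it called 17.2% of all genes. So did edgeR without CgA-KO replicate 1, the CgA-KO library lowest in F13a1 (adjusted p = 0.0433). With all genes of at least 1 count kept, edgeR called it too (adjusted p = 0.0493, with 8.23% of those genes called). The other alternatives did not call F13a1. Its adjusted p was 0.121 by limma-voom, 0.146 with libraries scaled on hepatocyte markers and 0.211 without CgA-KO replicate 2.

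The anticoagulants held the single call. Procr binds protein C on the surface of endothelial cells and presents it to thrombin. It read 0.985, 0.681 and 0.424 CPM in WT and 2.32, 5.01 and 1.84 CPM in CgA-KO livers, on 11, 16 and 10 counts against 50, 158 and 41. Every CgA-KO library was above every WT library. The log2 fold change was 2.18 (standard error 0.527, adjusted p = 0.0295), or 4.54-fold, with a limma-voom interval from 0.85 to 3.51. The call was lost without WT replicate 2 (adjusted p = 0.0862), WT replicate 3 (0.133), CgA-KO replicate 1 (0.0594) or CgA-KO replicate 2 (0.0926), and when libraries were scaled on hepatocyte markers (0.0662, with 4.72% of all genes called). Without CgA-KO replicate 2, the library that stood apart, its log2 fold change was 1.65. With 3 livers per genotype, the smallest two-sided p of an exact permutation test is 0.1.

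Thbd, thrombomodulin, which turns thrombin into an activator of protein C, read 1.97, 1.79 and 1.14 CPM in WT and 2.69, 4.22 and 3.36 CPM in CgA-KO livers. The genotypes did not overlap, and the log2 fold change was 1.08 (standard error 0.363, adjusted p = 0.0849), which missed the threshold. Pros1, the gene of protein S, the cofactor of activated protein C, read 50.9, 65.2 and 52.1 CPM in WT and 65.5, 92.8 and 71.7 CPM in CgA-KO livers. Of the factors listed as hepatocyte-made, Pros1 was the only one whose genotypes did not overlap, with a log2 fold change of 0.45 (adjusted p = 0.181). The list follows general knowledge of each factor, and the cells that made this RNA were not measured. With scaling by library size alone, under which 10.8% of all genes were called, Pros1 passed (log2 fold change 0.74, adjusted p = 0.0415). Proc, the gene of protein C, had 338 ± 37.3 CPM in WT livers against 269 ± 128 CPM in CgA-KO livers (SD, n = 3), and its log2 fold change of -0.33 did not pass (adjusted p = 0.541). The inhibitors Serpinc1 (antithrombin), Serpind1 (heparin cofactor II) and Tfpi had log2 fold changes of -0.24, -0.31 and 0.13, with adjusted p of 0.638, 0.456 and 0.819. A2m, a broad protease inhibitor, had 1 count in CgA-KO replicate 2 and 0 in the other libraries and was not tested. A count of 0 allows up to 3 counts, between 0.0951 and 0.269 TMM-normalized CPM by library, for counting error only.

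The plasminogen system gave 0 calls among 6 genes. Plg, plasminogen, read 1207, 1984 and 1655 CPM in WT and 1333, 2078 and 1205 CPM in CgA-KO livers and overlapped, with a log2 fold change of -0.07 (adjusted p = 0.911). Serpinf2, the inhibitor of plasmin, and Cpb2, the carboxypeptidase that protects fibrin from it, had log2 fold changes of -0.16 and -0.15 (adjusted p of 0.764 and 0.788). The genes that switch plasminogen on had levels of a few CPM or less. Plaur, the urokinase receptor, read 1.25, 0.511 and 0.0847 CPM in WT, the last on 2 counts, and 2.41, 3.11 and 3.05 CPM in CgA-KO livers. The genotypes did not overlap, and the log2 fold change was 2.34 (standard error 0.699, adjusted p = 0.0602). DESeq2 (log2 fold change 2.29, adjusted p = 0.0103) and limma-voom (3.00, 0.0252) called Plaur, where they called 17.2% and 13.1% of all genes. So did edgeR with all genes of at least 1 count kept (2.34, 0.0484, with 8.23% of those genes called). Without WT replicate 1, the WT library highest in Plaur, edgeR called it too (3.29, 0.0127). The other alternatives did not call Plaur, with adjusted p of 0.0744 by library size alone and 0.146 with hepatocyte marker scaling. Without WT replicate 3, which had 2 counts, its log2 fold change was 1.75 (adjusted p = 0.123). Plau, urokinase, read 2.60, 1.57 and 0.593 CPM in WT and 6.87, 1.93 and 6.36 CPM in CgA-KO livers, so CgA-KO replicate 2 lay within the WT range. Its log2 fold change was 1.71 (standard error 0.613, adjusted p = 0.103). Of the alternatives, only DESeq2 called Plau (adjusted p = 0.0389). Plat, tissue-type activator, rested on 7 to 54 counts per library and overlapped, with a log2 fold change of 0.91 (adjusted p = 0.408).

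**Figure D2:**
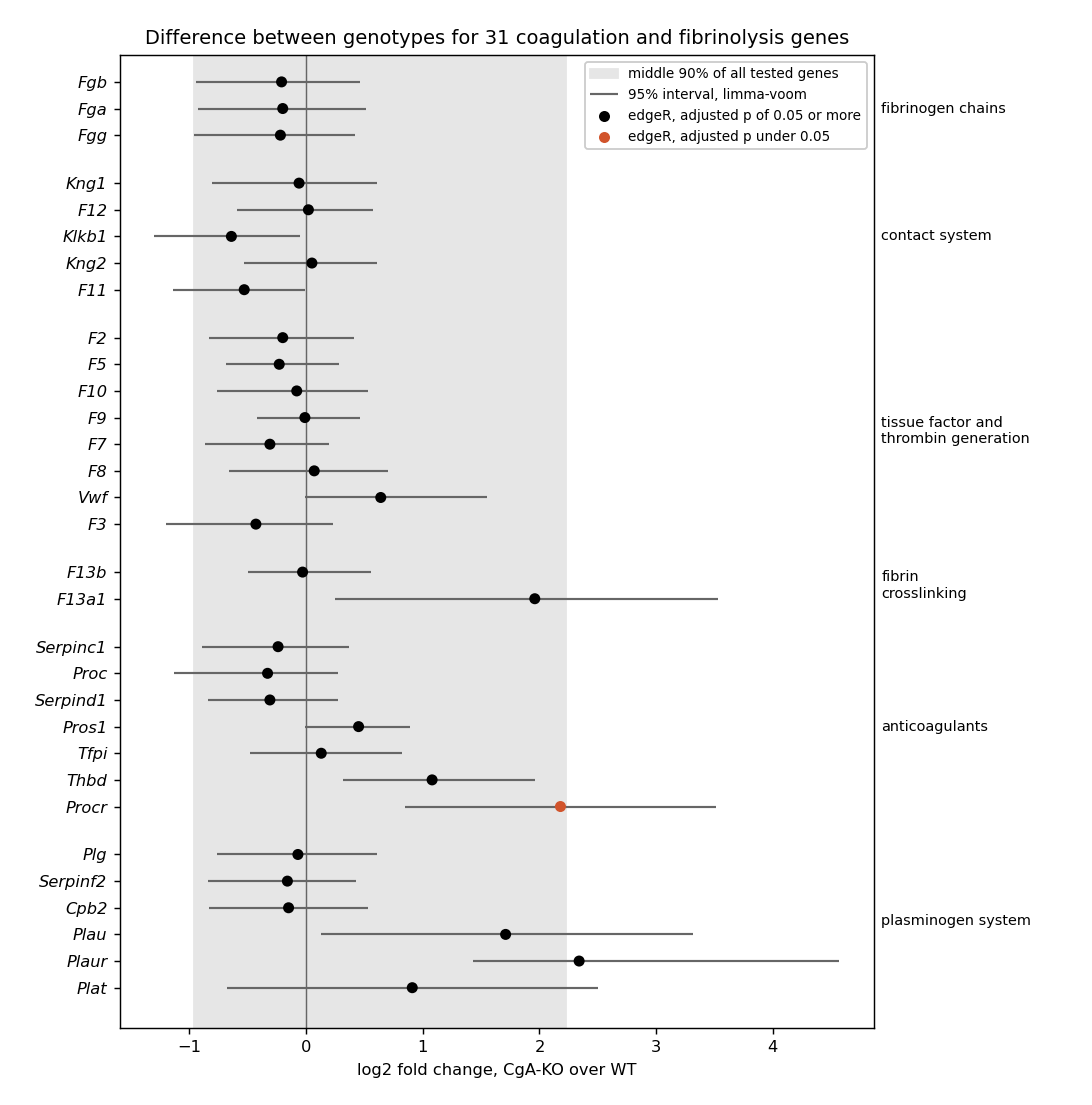
Points are log2 fold changes of CgA-KO over WT by edgeR for the 31 factors tested, with 95% intervals by limma-voom as lines. The grey band holds the middle 90% of all genes, from -0.96 to 2.23, and Procr (orange, 2.18) is the single factor with an adjusted p under 0.05.

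Split by the cell that mainly makes them, 0 of the 21 hepatocyte-made factors were called, with 0 by edgeR, 1 by DESeq2 and 2 by limma-voom at an unadjusted p under 0.05, and 0 after adjustment by DESeq2 and limma-voom. Among all genes with a WT mean of at least 10 CPM, 8.94% were called. The log2 fold changes of the 21 factors ran from -0.64 to 0.45 with a median of -0.20, and 18 were below 0. Scaling by library size alone moved the median of all genes from -0.01 to 0.26 and that of these factors to 0.10, with 4 below 0. With hepatocyte marker scaling 17 were below 0, and with upper-quartile factors 15. The sign of most of them thus depends on whether libraries are scaled beyond their size. For 18 of the 21, the limma-voom interval lay inside 2-fold in either direction, and the others were Klkb1, F11 and Proc. Of the 10 factors tested that other cells mainly make, 1 was called by edgeR, 4 by DESeq2 (Procr, Plaur, F13a1 and Plau) and 2 by limma-voom (Procr and Plaur). Of all genes, DESeq2 called 17.2% and limma-voom 13.1%. Among these 10, 9 log2 fold changes were above 0, F3 was below, and the median was 1.00. Genes under 10 CPM in WT, where these factors lie, were called by edgeR in 17.0% of cases.

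**Figure D3:**
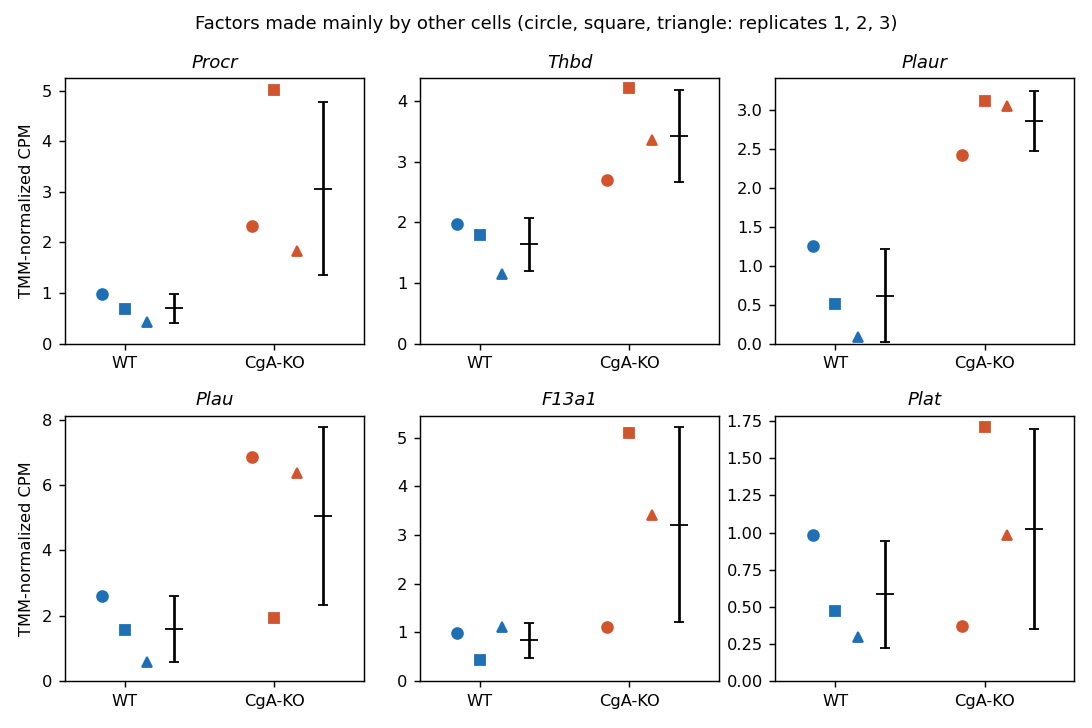
Each panel gives TMM-normalized CPM of a factor made mainly by cells other than hepatocytes (blue, WT; orange, CgA-KO; bars, mean and SD of 3 livers). Procr, Thbd, Plaur and F13a1 do not overlap between the genotypes, while Plau and Plat do.

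On the TMM scale, the hepatocyte-made factors varied together between libraries of a genotype. WT replicate 2 was the highest WT library for 21 of the 21, and WT replicate 1 the lowest for 20. The TMM factor was lowest in WT replicate 2 (0.756), which raises all its levels. CgA-KO replicate 2 was the highest CgA-KO library for 19 and CgA-KO replicate 3 for the other two, F9 and Cpb2. The median distance of the 21 factors from their own means over the 6 libraries was -0.20, 0.35 and 0.10 on the log2 scale in the WT replicates and -0.32, 0.33 and -0.26 in the CgA-KO replicates. That of 14 hepatocyte markers was -0.27, 0.26 and 0.00 in WT and -0.12, 0.42 and -0.25 in CgA-KO livers, so on this scale both sets were highest in replicate 2 of each genotype. Relative to library size alone, the marker level was 0.876, 0.901 and 0.931 in the WT replicates, as factors around 1. In the CgA-KO replicates it was 1.025, 1.47 and 0.904. The order of the WT replicates thus depended on the scaling for the markers and for many of the factors. By counts relative to library size alone, WT replicate 2 was the highest WT library for F2, F13b, Fga, Serpind1 and Cpb2. It was not the highest for the other hepatocyte-made factors. In bulk tissue, fewer cells of a type and less RNA per cell cannot be told apart.

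**Figure D4:**
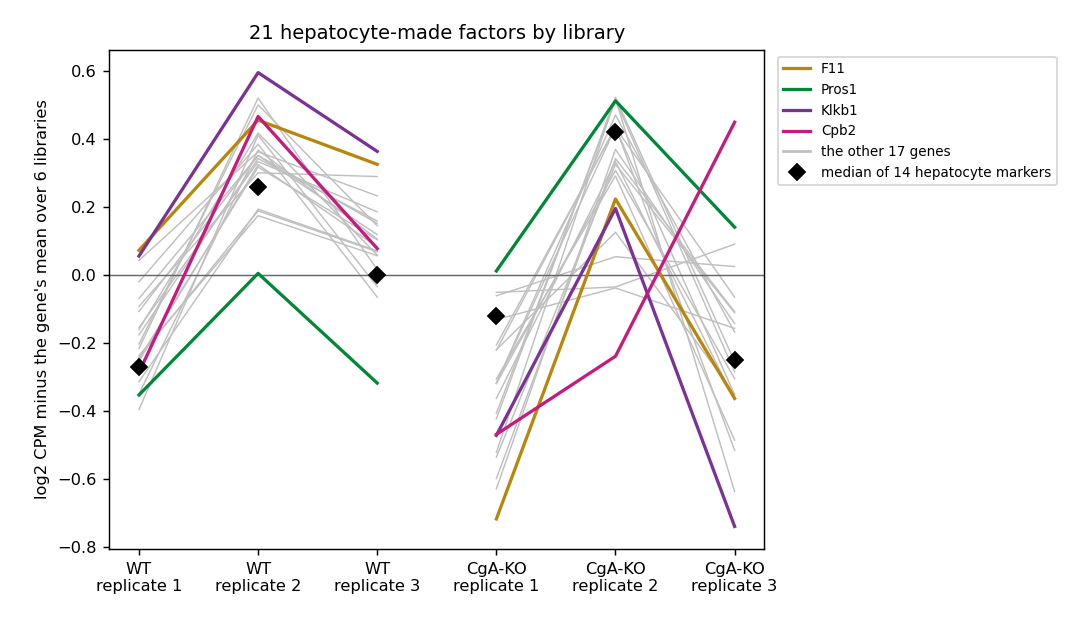
Lines give the log2 CPM of each of the 21 hepatocyte-made factors minus its mean over the 6 libraries, and diamonds the median of 14 hepatocyte markers. On this TMM scale most lines peak in replicate 2 of both genotypes, Pros1 lies higher in CgA-KO than most, and Cpb2 is highest among CgA-KO libraries in replicate 3.

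Ratios of counts within a library do not depend on how libraries are scaled, and those named here were chosen after the values were seen. The ratio of Klkb1 to F12 was 0.924, 0.996 and 0.922 in WT and 0.676, 0.621 and 0.505 in CgA-KO livers. F11 to F12 was 0.144, 0.139 and 0.139 in WT and 0.0877, 0.0976 and 0.101 in CgA-KO livers. Both ratios were lower in every CgA-KO library than in any WT library, although Klkb1 and F11 alone overlapped between the genotypes. Klkb1 to F11 was 6.73 ± 0.375 in WT and 6.35 ± 1.35 in CgA-KO livers (SD, n = 3) and overlapped. Pros1 to Proc, the cofactor over the protease, was 0.170, 0.175 and 0.153 in WT and 0.324, 0.223 and 0.384 in CgA-KO livers, without overlap. Of the 210 ratios between pairs of the 21 hepatocyte-made factors, 61 (29.0%) did not overlap. These pairs share genes, and the share among ratios of other genes was not computed. By CPM of single genes, a different measure, 1 of the 21 and 33.6% of all genes tested did not overlap.

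**Figure D5:**
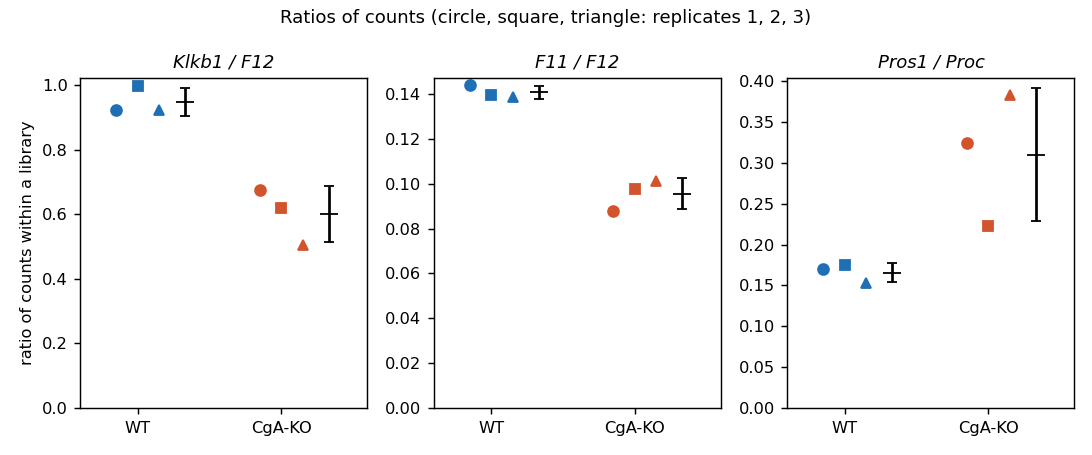
Points are ratios of counts within each library for Klkb1 to F12, F11 to F12 and Pros1 to Proc (blue, WT; orange, CgA-KO), with bars for the mean and SD of 3 livers. CgA-KO libraries lie below WT in the contact system ratios and above WT in the protein S to protein C ratio.

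Summed markers of several of the cells that make the other factors did not overlap between genotypes. Of all genes tested, 12.4% were called, 8.60% higher and 3.84% lower, and of those under 10 CPM in WT 17.0% were called. By CPM of single genes, a different measure from a sum, 33.6% did not overlap. The summed Kupffer cell markers were 270 to 364 CPM in WT livers against 1120 to 1869 CPM in CgA-KO livers, and 7 of 10 were called higher. Monocyte and recruited macrophage markers were 52.0 to 161 CPM in WT livers against 379 to 565 CPM in CgA-KO livers, with 6 of 10 called higher. Platelet and megakaryocyte markers were 11.6 to 20.5 CPM against 79.7 to 83.2 CPM, with 1 of 7 tested (14.3%) called higher. The 7 had log2 fold changes from 1.04 to 3.04 and WT means from 0.104 to 7.55 CPM. The sum therefore leans on the more abundant of them, and what platelets themselves add to it was not tested. Large vessel endothelial markers, which include Vwf, were 19.4 to 31.4 CPM against 52.5 to 109 CPM, with 1 of 8 (12.5%) called higher. In that list 3 of the 8 log2 fold changes were below 0, down to -1.42, and the median was 0.11, so the sum does not stand for every marker. Stellate cell markers were 236 to 299 CPM against 382 to 656 CPM, with 4 of 10 called higher. Sinusoidal endothelial markers overlapped, from 152 to 194 CPM in WT and from 161 to 238 CPM in CgA-KO livers, with 2 called higher and 1 lower. Red cell markers were 118 to 291 CPM against 333 to 476 CPM, with 1 of 4 called higher and 1 lower. T and NK cell markers were 3.11 to 12.99 CPM against 43.8 to 91.5 CPM, with 4 of 7 called higher. Markers of bile duct and of B cells overlapped, with 0 called in each list by edgeR and by DESeq2, and with 1 and 0 genes by edgeR at an unadjusted p under 0.05. No marker was at 0 in all libraries, and the part of these cells in the levels of Procr, Thbd, Plaur, Plau and F13a1 was not tested.

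Of 43 other genes of the pathway, 39 were tested, 2 (5.13%) were called higher and 0 lower, where 12.4% of all genes were called. Fgl2, a membrane protease of macrophages and lymphocytes that can cut prothrombin, read 4.03, 2.81 and 1.398 CPM in WT and 28.5, 17.9 and 21.3 CPM in CgA-KO livers. Every CgA-KO library was above every WT library, and the log2 fold change was 3.07 (standard error 0.377, adjusted p = 0.00397). Tgm2, a tissue transglutaminase related to F13a1, had 73.4 ± 9.70 CPM in WT livers against 127 ± 26.3 CPM in CgA-KO livers (SD, n = 3). Its log2 fold change was 0.79 (adjusted p = 0.0494), and the call was lost without WT replicate 2 (adjusted p = 0.0898), WT replicate 3 (0.209), CgA-KO replicate 2 (0.102) or CgA-KO replicate 3 (0.114). It was also lost by limma-voom (0.0501), with a total of at least 1 count (0.0521), with the replicate block (0.0930) and with hepatocyte marker scaling (0.199). Among the 8 genes of the vitamin K cycle and factor secretion, which prepare and export several clotting factors, 0 were called by edgeR, 3 passed at an unadjusted p under 0.05, all lower in CgA-KO livers, where 29.1% of all genes passed, and DESeq2 called 1. That gene was Lman1, which carries factors V and VIII out of the endoplasmic reticulum and was named after its values were seen, with 157 ± 19.1 CPM in WT livers against 108 ± 7.75 CPM in CgA-KO livers (SD, n = 3; edgeR adjusted p = 0.0983, DESeq2 adjusted p = 0.0313). Over all 43 genes DESeq2 called 5 higher and 4 lower, where it called 17.2% of all genes.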

How the data were processed

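RNA was poly(A)-selected from 6 livers. The authors quantified reads with Salmon 1.4.0 against the GRCm38 transcriptome and deposited whole-number counts per gene symbol; the step from transcripts to genes is not given in the sources used here. The 32 factors and all gene lists were chosen with earlier results of these data known. All factors are named by role, and of the other pathway genes those called that reached 5 CPM in either genotype, with exceptions stated. Counts were tested with edgeR 4.0.16 in R 4.3.3 (filterByExpr, minimum count 10; TMM; robust quasi-likelihood fits; Benjamini-Hochberg over the 13867 genes tested). Standard errors are approximate, taken from each log2 fold change and its F statistic. Alternatives were DESeq2 1.42.0, limma-voom (limma 3.58.1), other scalings and filters, a replicate block, a threshold of 0.01 and leaving out each library. Scripts were tested on simulated data. Replicates differed by a chi-square of 30.4 to 205 per degree of freedom, beyond the counting noise of a repeated deposit, so none was merged; this does not show that animals were separate. Coordinates are GENCODE's for GRCm38. Figures used matplotlib 3.10.9.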

Additional observations from a re-analysis of the deposited data

How the results depend on the processing

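The factors called numbered 1 by edgeR, 0 at a threshold of 0.01 or with hepatocyte marker scaling, 4 by DESeq2, 2 with library size alone or by limma-voom, 3 with a total of at least 1 count, and 0 to 2 when a library was left out. Of those made by other cells, 1 was called by edgeR, 0 at 0.01 or with hepatocyte marker scaling, 4 by DESeq2, 2 by limma-voom, 3 with a total of at least 1 count, and 0 to 2 when a library was left out. Without CgA-KO replicate 1 the factor called was F13a1 and not Procr. The hepatocyte-made factors called numbered 0, and 1 (Pros1) with library size alone (log2 fold change 0.74, adjusted p = 0.0415). The other pathway genes called numbered 2, 1 at 0.01 or with hepatocyte marker scaling, 9 by DESeq2, and 1 to 5 when a library was left out. Over all genes the 1726 calls became 360 at 0.01, 2592 by DESeq2, 654 with hepatocyte marker scaling, and 394 (without WT replicate 3) to 2126 (without WT replicate 1). The share of all genes called was 12.4% by edgeR, 13.1% by limma-voom, 10.8% with library size alone and 4.72% with hepatocyte marker scaling. It was 17.2% of 15083 genes by DESeq2 and 8.23% of 19693 genes with a total of at least 1 count. With the replicate block 1 factor (Procr), 2 pathway genes (Fgl2 and Plgrkt, not Tgm2) and 1498 genes were called. Same-numbered samples correlated at 0.199, 0.013 and -0.066, and differently numbered ones from -0.264 to 0.234. These values gave no sign that the numbers pair the samples, but 3 libraries per genotype cannot exclude it. The call of Procr did not reverse its direction in any alternative. With 10 to 16 counts per WT library, Procr is at the limit of this depth. The cause of these changes was not tested.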

Other observations

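Of the 210 pairwise ratios of hepatocyte-made factors, 61 (29.0%) did not overlap, and the share among ratios of other genes was not computed. Of 20 ratios each, Pros1 had 19 without overlap, Klkb1 15, F11 12, F12 and Kng2 8 each, and the other 16 factors between 0 (Cpb2) and 5. For each such ratio the exact two-sided permutation p can be no smaller than 0.1.

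Of the 10 tested factors of other cells, 7 were highest among the CgA-KO libraries in replicate 2, with Procr at 5.01 CPM and F13a1 at 5.11 CPM. The exceptions were Plau, F8 and F3, which were lowest there, at 1.93, 4.19 and 2.47 CPM. Beside A2m, 1 count in all, its relatives in the mouse liver were abundant, with WT means of 3248 CPM for Pzp, 2286 CPM for Mug1 and 533 CPM for Mug2. Their log2 fold changes were -0.46, 0.37 and -0.29, with adjusted p of 0.350, 0.383 and 0.480.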
